A study of Rattus norvegicus with 8 samples.

Results

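Adhesion molecules on the vessel wall catch leukocytes from the blood, and 5 of their genes were followed in isolated rat hearts perfused with or without doxorubicin. The genes were Sele (E-selectin), Selp (P-selectin), Icam1, Icam2 and Vcam1. Every probe set whose single gene symbol in the platform annotation was one of these names was taken, which gave 7 of the 31042 probe sets tested, and 5 of the 14217 named genes. Sele, Icam1 and Vcam1 each had 1 probe set and Selp and Icam2 had 2, which are called here the brighter and the dimmer one. The genes were chosen with earlier results of these data known.

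The hearts came from male Wistar rats of about 300 g and were perfused for 2 h in a Langendorff apparatus, which feeds the coronary vessels of an excised heart through the aorta without recirculating the fluid. The 4 control hearts had no drug and the 4 doxorubicin hearts had 2 µM doxorubicin, an anthracycline that intercalates into DNA and poisons topoisomerase II. No genotype or transgene is named in the labels, each heart is labelled as a biological replicate, and RNA of the heart was read on 1 Affymetrix array per heart.

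Selectins are lectins that let leukocytes tether to and roll along the endothelium, and members of the immunoglobulin superfamily such as ICAM-1, ICAM-2 and VCAM-1 then hold them firmly by binding integrins. E-selectin, VCAM-1 and much of ICAM-1 are made after transcription is switched on by cytokines such as TNF and IL-1, largely through NF-kB and AP-1 factors. P-selectin is also stored ready-made in the Weibel-Palade bodies of endothelial cells and in the granules of platelets, while ICAM-2 is carried by resting endothelium.

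Levels are RMA intensities on the log2 scale, differences are doxorubicin minus control, and a probe set was called changed at an adjusted p under 0.05 (limma, Benjamini-Hochberg over all 31042 probe sets, two-sided). Fell and rose mean lower or higher in doxorubicin than in control hearts. All hearts were read after 2 h of perfusion, so a decline over time and a smaller rise cannot be told apart. Arrays of 1 group correlated at 0.988 to 0.996 over probe sets and no pair held identical values. The mean of 18 hybridization control probe sets, which read transcripts spiked into the labelled sample, was 10.2 to 10.6 log2 on control and 9.97 to 10.1 on doxorubicin arrays, so the groups did not overlap in it. Of the variance of this mean over the 8 arrays 63.7% lay between the groups. A fit that holds it as a covariate thus estimates group differences less precisely (Sele SE 0.32 against 0.18). The differences also moved in it. Sele went from -2.06 to -2.02, the brighter Selp probe set from -0.79 to -0.65 and Vcam1 from -0.75 to -0.63, all toward 0. Icam1 went from -0.36 to -0.39 and the brighter Icam2 probe set from 0.10 to 0.25. The dimmer Selp and Icam2 probe sets changed sign, to 0.062 and 0.20. The control level and the treatment cannot be fully told apart in that fit. In that fit 92 probe sets were called in place of 687.

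The RefSeq promoter table of the GRCr8 assembly had entries for Sele, Icam1 and Vcam1. The start site of the window for Sele lies 517 bases inside that gene's annotated model, so the window was not used. The stretches that lie before the gene models of Icam1 and Vcam1 are shown because these genes are textbook targets of NF-kB, whose subunits and inhibitor were measured in the same hearts. Capitals mark GGANNTTCC in Icam1, a motif chosen after the sequences were seen, and the kappaB consensus and TATAAA on either strand in Vcam1, where 2 matches to TATAAA overlap.
Icam1, chr8:27829595-27829687, plus strand: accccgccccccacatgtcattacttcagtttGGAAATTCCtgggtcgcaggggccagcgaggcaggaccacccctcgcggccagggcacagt
Vcam1, chr2:206742784-206743033, minus strand: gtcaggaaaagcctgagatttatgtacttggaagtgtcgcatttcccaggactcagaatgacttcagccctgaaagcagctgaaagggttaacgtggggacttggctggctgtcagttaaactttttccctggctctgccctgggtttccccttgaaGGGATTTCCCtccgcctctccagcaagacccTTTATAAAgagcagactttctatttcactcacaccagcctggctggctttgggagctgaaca
The kappaB match of Vcam1 began 93 bases before its annotated start, and GGANNTTCC began 61 bases before the Icam1 gene model. Over the 250 bases before the start of 33469 RefSeq entries, both strands read, 3.54% held the kappaB consensus, 3.36% held GGANNTTCC and 12.9% held TATAAA. In the Vcam1 stretch the CRE/ATF motif TGACNTCA also matched, which 8.88% of entries hold, while the AP-1 motif TGANTCA (6.34% of entries) matched in neither stretch. The Icam1 stretch holds only 93 bases, so shares over 250 bases are not directly comparable with it. All these matches describe letters only.

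Doxorubicin hearts had lower levels of Sele, of Vcam1 and of Selp at the brighter of its 2 probe sets, with Sele lower by the most. The Icam1 difference did not pass the test and the Icam2 groups overlapped at both probe sets. The Selp and Vcam1 calls were each lost without any one of 6 hearts, while that of Sele held without any single heart. With the hybridization controls in the fit no member was called. Sele was 4.17-fold lower, the brighter Selp probe set 1.73-fold and Vcam1 1.68-fold. Of the 7 probe sets 3 fell and none rose (none higher at an unadjusted p under 0.05), against 1.52% of all probe sets that fell and 0.689% that rose. By the brightest probe set of each gene, 3 of 5 genes fell, against 2.17% of all genes that fell and 0.802% that rose. These shares also stand beside the counts of each gene list below. No share of all genes was taken at an unadjusted p under 0.05. In either direction 2.21% of probe sets and 2.97% of genes passed. Without 1 heart 397 (doxorubicin 1) to 854 (control 2) probe sets passed, against 687 with all 8. Those counts were 444 without control 3, 452 without doxorubicin 2 and 435 without doxorubicin 3. Every doxorubicin heart lay below every control heart for 3 of the 7 probe sets, against 4.02% of all probe sets, and for 3 of the 5 genes, against 4.69% of all genes. The median difference of the 5 genes was -0.75, and that of all genes was 0.0063.

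**Figure D1:**
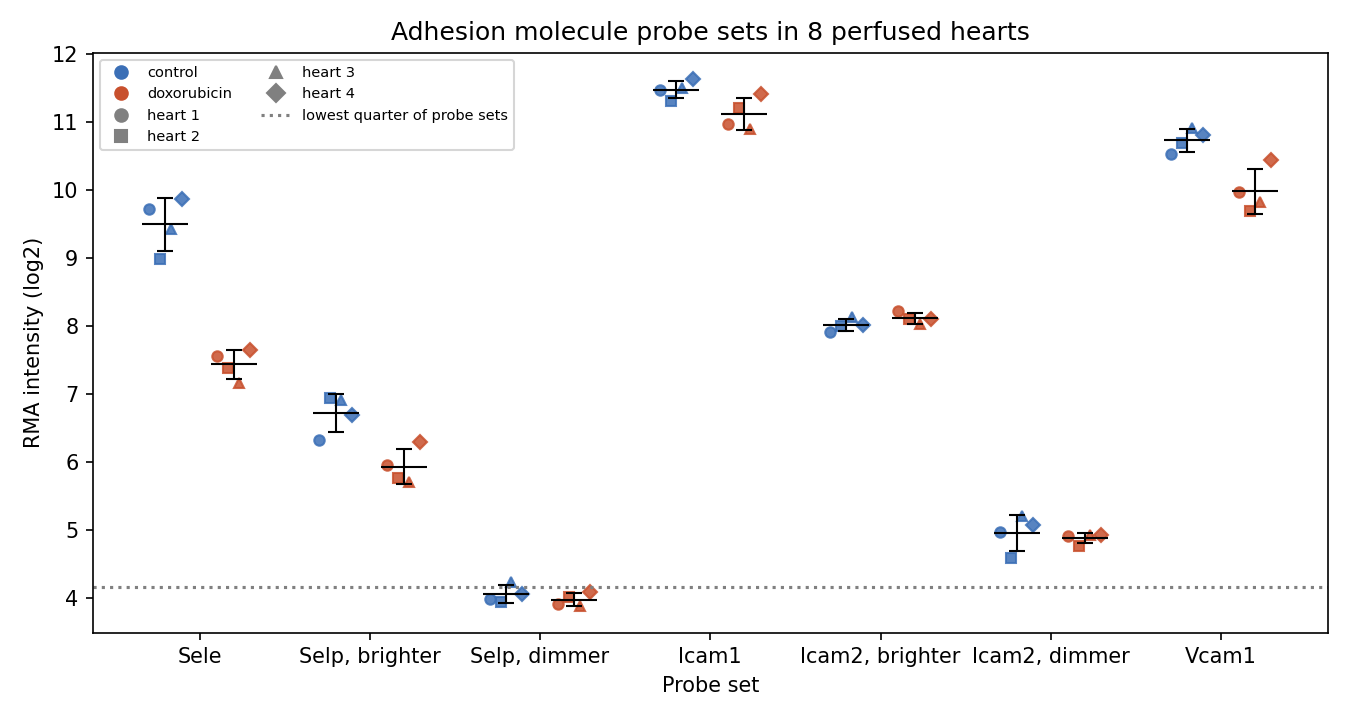
RMA intensity (log2, vertical axis) of the 7 probe sets in 4 control (blue) and 4 doxorubicin hearts (orange). Marker shapes number the hearts within a group and pair none of them, black bars are the mean ± SD of 4 hearts, and the dotted line at 4.16 log2 bounds the dimmest 25% of probe sets. The Sele groups stand apart by more than any single heart's distance from its group, the Selp (brighter) and Vcam1 groups are just separate, and the other groups overlap.

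E-selectin is made almost only by activated endothelium. Sele stood at 9.72, 8.98, 9.42 and 9.86 log2 in control hearts 1 to 4 and at 7.56, 7.37, 7.16 and 7.65 log2 in doxorubicin hearts 1 to 4. The lowest control heart was 1.33 above the highest doxorubicin heart, so the groups were well apart, and control 2 was the low one of its group. The group means were 9.49 ± 0.39 and 7.44 ± 0.22 log2 (SD, n = 4 each). The difference was -2.06 (SE 0.18, 95% interval -2.47 to -1.65, limma adjusted p = 3.17e-04), and the exact permutation test over hearts gave p = 0.0286, the smallest that 4 against 4 hearts allow. Without any single heart the difference was -2.23 to -1.94 and the call held (limma adjusted p at most 0.0021). With the hybridization controls in the fit it was -2.02 (SE 0.32, limma adjusted p = 0.0541), which is not a call. In bulk RNA a gene's level alone cannot tell fewer cells of a type from less RNA per cell. Beside the -2.06 of Sele, 17 endothelial identity genes had a median difference of -0.02, and relative to their mean in the same heart Sele differed by -1.97 with no overlap of groups. Whether cell number or RNA per cell differed was not tested.

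P-selectin is the other selectin of the vessel wall, and like Sele its gene lies on chromosome 13 of GRCr8. The brighter Selp probe set stood at 6.33, 6.93, 6.92 and 6.69 log2 in control hearts 1 to 4 and at 5.95, 5.77, 5.71 and 6.29 log2 in doxorubicin hearts 1 to 4. The groups were separate by only 0.039, with control 1 the low control heart and doxorubicin 4 the high doxorubicin heart. It fell by 0.79 (SE 0.16, 95% interval -1.14 to -0.43, limma adjusted p = 0.0342, exact permutation p = 0.0286). The dimmer Selp probe set ranged from 3.94 to 4.23 log2 in control and from 3.88 to 4.09 in doxorubicin hearts. Its mean was among the dimmest 25% of all probe sets, and its difference was -0.08 (SE 0.08, 95% interval -0.26 to 0.10, limma adjusted p = 0.753). The dimmer probe set thus did not repeat the fall, and its low level limits what it can show. The mean of both probe sets fell short of a call (-0.43, limma adjusted p = 0.0586).

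VCAM-1 binds the integrin VLA-4 of monocytes and lymphocytes. Vcam1 stood at 10.52, 10.69, 10.91 and 10.81 log2 in control hearts 1 to 4 and at 9.96, 9.70, 9.82 and 10.44 log2 in doxorubicin hearts 1 to 4. Doxorubicin 4 lay 0.081 below the lowest control heart, and the other doxorubicin hearts were lower than it. The difference was -0.75 (SE 0.15, 95% interval -1.09 to -0.41, limma adjusted p = 0.0346, exact permutation p = 0.0286).

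The calls for Selp and Vcam1 lay close to the threshold (limma adjusted p = 0.0342 and 0.0346 with all hearts). Each was lost without any one of 6 hearts (control 2, control 3, control 4, doxorubicin 1, doxorubicin 2 or doxorubicin 3), with differences of -0.80 to -0.71 for Selp (limma adjusted p 0.0633 to 0.109) and of -0.77 to -0.66 for Vcam1 (0.0538 to 0.112), leaving Sele as the only called member. With all hearts the differences were -0.79 and -0.75, so their size changed little in those fits while the calls did not hold. Over all probe sets fewer were also called in those fits than the 687 with all hearts, except without control 2 (854). Without doxorubicin 4 the differences were -0.91 for Selp (limma adjusted p = 0.0185) and -0.91 for Vcam1 (0.00417), and without control 1 they were -0.92 (0.0104) and -0.82 (0.0350). With the hybridization controls in the fit neither was called (Selp -0.65, limma adjusted p = 0.731, and Vcam1 -0.63, 0.733). In that limma fit all 7 probe sets missed the threshold, and at an unadjusted p under 0.05 Sele, Selp and Vcam1 were lower and the brighter Icam2 probe set was higher (0.25).

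ICAM-1 is the endothelial ligand of the leukocyte integrins LFA-1 and Mac-1. Icam1 stood at 11.47, 11.31, 11.50 and 11.63 log2 in control hearts 1 to 4 and at 10.97, 11.20, 10.90 and 11.41 log2 in doxorubicin hearts 1 to 4. Doxorubicin 4 was above control 2, so the groups overlapped, though the other 3 doxorubicin hearts were below all controls. The difference was -0.36 (SE 0.12, 95% interval -0.62 to -0.10), which did not pass over all probe sets (limma adjusted p = 0.188, exact permutation p = 0.0571). Without doxorubicin 4 it was -0.45 (limma adjusted p = 0.0696), also no call.

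ICAM-2 is a smaller ligand of LFA-1. The brighter Icam2 probe set ranged from 7.91 log2 in control 1 to 8.13 log2 in control 3, with control 4 at 8.01 and control 2 just below it, and stood at 8.22, 8.10, 8.03 and 8.10 log2 in doxorubicin hearts 1 to 4. The doxorubicin hearts lay in or just above the range of the controls. The difference was 0.10 (SE 0.07, 95% interval -0.05 to 0.25, limma adjusted p = 0.604), so a fall as large as that of Vcam1 lies outside this interval. The dimmer Icam2 probe set was 4.59 to 5.21 log2 in control and 4.77 to 4.93 log2 in doxorubicin hearts, with a difference of -0.08 (SE 0.12, 95% interval -0.34 to 0.19, limma adjusted p = 0.865).

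**Figure D2:**
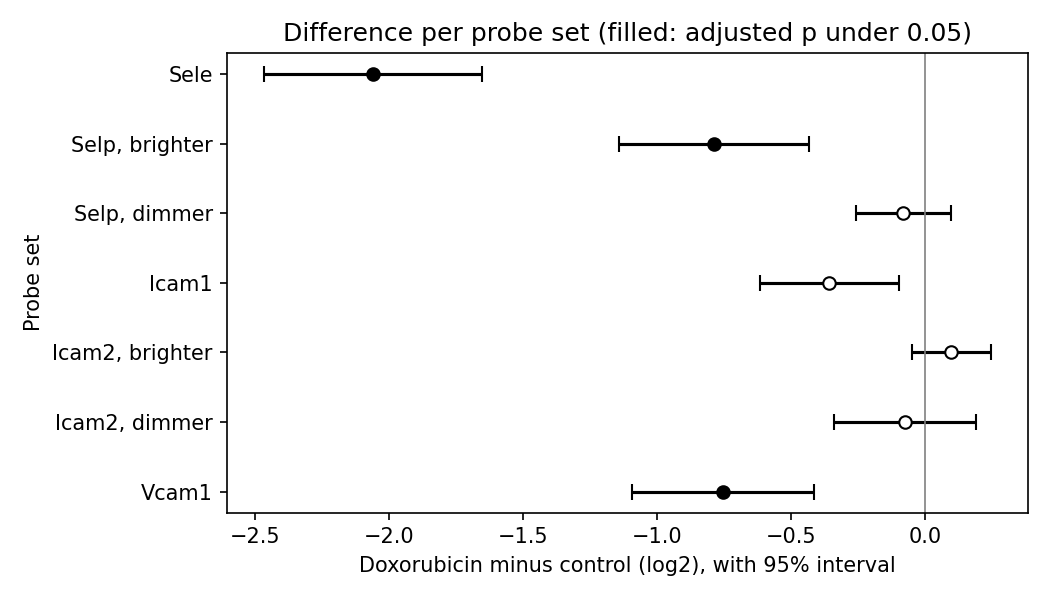
Difference of doxorubicin minus control (log2, horizontal axis) for each of the 7 probe sets, from limma over 8 arrays, with 95% intervals as bars. Filled points passed at an adjusted p under 0.05. Sele lies at -2.06, the brighter Selp probe set and Vcam1 at -0.79 and -0.75, and both Icam2 probe sets include 0.

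Sele differed from each other member in how far it was lower. The log2 ratio of Sele to Vcam1 within a heart was -1.71 to -0.80 in control and -2.79 to -2.32 in doxorubicin hearts, a change of -1.31. The change was -1.27 for Sele against Selp (brighter), -1.70 against Icam1 and -2.16 against Icam2 (brighter). In each of these 4 pairs the groups did not overlap, and the exact permutation test gave p = 0.0286, the smallest possible, with the same value after Benjamini-Hochberg adjustment over the 4 pairs.

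Heart by heart, the members did not all follow 1 order. Doxorubicin 4 was the highest of its group for Sele, Selp, Icam1 and Vcam1. Among the controls, control 4 was highest for Sele and Icam1, control 2 for Selp and control 3 for Vcam1. The correlation over the 8 hearts was 0.96 between Selp and Vcam1 and 0.83 after subtracting each group's mean, while Sele and Selp correlated at 0.81 and, after that subtraction, at -0.14. Sele and Icam1 correlated at 0.83 and 0.66 in the same way, while Icam2 correlated at -0.53 to -0.24 with the other members over the 8 hearts and at 0.02 to 0.58 after the subtraction. These are descriptions over 8 arrays that share the normalization and, without the subtraction, the group difference.

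Atrial marker levels also differed between hearts. The summed intensity of 5 atrial marker genes was 1249 to 10366 in control and 1504 to 20463 in doxorubicin hearts, lowest in control 1 and highest in doxorubicin 4, which were the low control and the high doxorubicin heart for Selp. None of the 5 genes passed in limma (1 higher at an unadjusted p under 0.05). With the atrial marker mean as a covariate, chosen after seeing the data, the difference was -0.92 for Selp (SE 0.08, limma adjusted p = 4.38e-04), -0.84 for Vcam1 (SE 0.13, 0.00977), -2.01 for Sele (SE 0.19, 6.40e-04) and -0.38 for Icam1 (SE 0.12, 0.160). All 3 calls held in that fit, but the hearts lowest and highest in atrial level were also those that narrowed the Selp and Vcam1 gaps. The fit is thus no independent check of those calls.

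**Figure D3:**
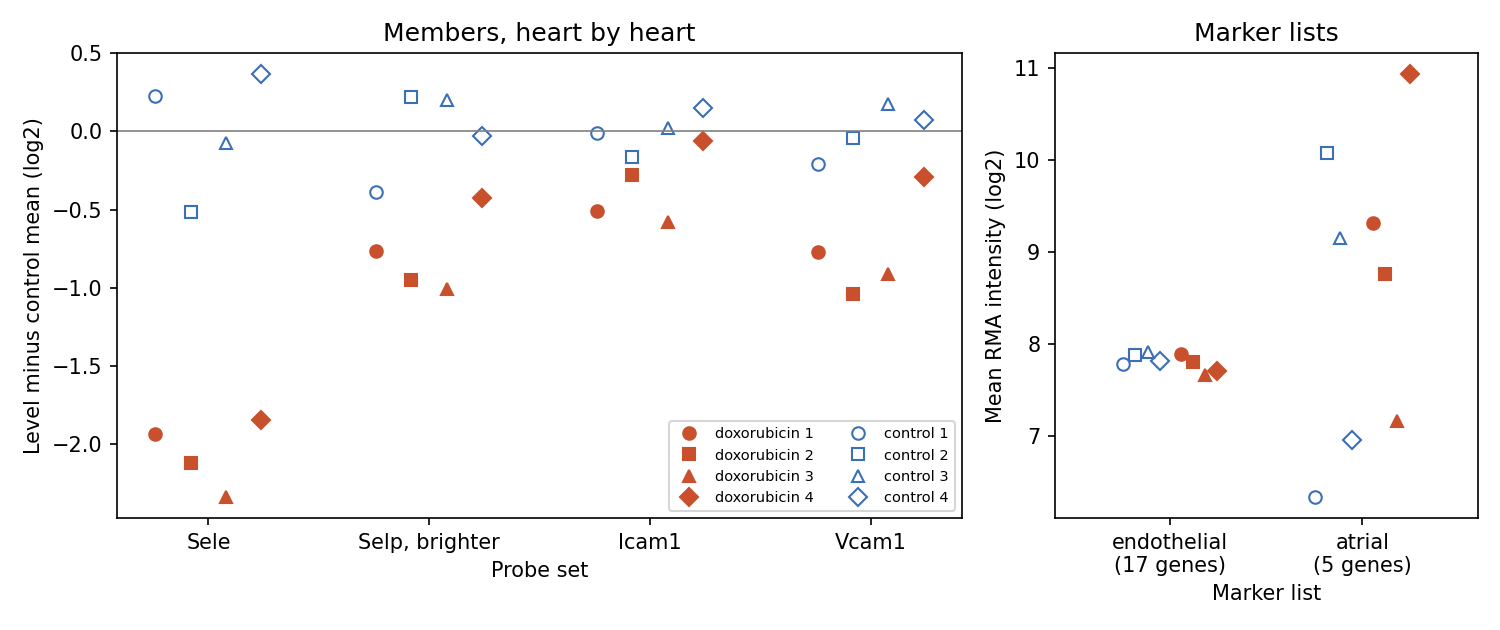
Left, each heart's level minus the mean of the control hearts (log2, vertical axis) for Sele, the brighter Selp probe set, Icam1 and Vcam1, with doxorubicin hearts filled and control hearts open; doxorubicin 4 is the highest doxorubicin heart in all 4. Right, the mean RMA intensity (log2) of 17 endothelial and 5 atrial marker genes in each heart; the endothelial mean spans 7.66 to 7.91 and the atrial mean 6.33 to 10.9.

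The endothelial identity of the RNA was read from 17 measured genes of 19 listed. Their summed intensity was 5404 to 5717 in control and 4901 to 5729 in doxorubicin hearts, none was among the dimmest 25% of probe sets, and their median difference was -0.02. Pecam1, a junctional adhesion molecule of all endothelium, stood at -0.16 (SE 0.08) and Vwf, the von Willebrand factor gene, at 0.20 (SE 0.13), neither past the test. Of the list 2 fell, the transcription factor genes Sox18 (-1.53, SE 0.24) and Erg (-0.60, SE 0.12), and 2 rose, Ramp2, which encodes a part of the adrenomedullin receptor (0.48, SE 0.08), and Tie1, a receptor tyrosine kinase gene (0.34, SE 0.06). Ramp2 lost its call without doxorubicin 1 and Tie1 without doxorubicin 1, 2 or 3 (Tie1 limma adjusted p up to 0.0576), Erg as given with the regulators, and none of the 4 was called with the hybridization controls in the fit. Taken relative to the endothelial mean of the same heart, the difference was -1.97 for Sele with no overlap of groups (exact permutation p = 0.0286). It was -0.67 for Vcam1 and -0.70 for Selp, with an exact permutation p = 0.0571 for each, and -0.27 for Icam1 (p = 0.171). The brighter Icam2 probe set then stood 0.18 higher in doxorubicin hearts, with no overlap (exact permutation p = 0.0286). Sox18 alone moved that mean: its difference was -0.08 with all 17 genes and 0.0060 without Sox18, a choice made after seeing the data. Without it the relative difference was -0.79 for Selp, -0.76 for Vcam1 and 0.09 for Icam2, with no overlap in each (exact permutation p = 0.0286), and -2.07 for Sele. RNA of the whole heart was read, so which cells the Icam1 and Vcam1 RNA came from was not tested. Fibroblast markers summed to 12153 to 19392 in control and 16506 to 21347 in doxorubicin hearts. Smooth muscle and pericyte markers summed to 2839 to 3948 and 3159 to 3959.

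Platelets carry P-selectin, and their markers were read in the same hearts. Of 8 measured platelet genes 0 passed in limma (1 higher at an unadjusted p under 0.05), and their sum was 229 to 320 in control and 249 to 286 in doxorubicin hearts. General leukocyte markers had positive differences for 11 of 11 genes without a call in limma (6 higher before adjustment), by the brightest probe set. Another probe set of Laptm5, a lysosomal membrane protein gene of leukocytes, was called higher (0.48, SE 0.10, limma adjusted p = 0.0495). Their median was 0.18, with sums of 1718 to 2135 and 1962 to 2350. Neutrophil markers were dim, with 4 of 6 measured genes among the dimmest 25% and sums of 92.9 to 110.0 and 102 to 105. Macrophage markers summed to 2101 to 2759 and 2265 to 2977, and none of 11 passed in limma (2 lower at an unadjusted p under 0.05). What part these cells had in the results was not tested.

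Upstream of the members, the cytokines that induce them and their receptors were lower in part. Of 20 measured genes 6 fell and none rose, against 2.17% of all genes that fell and 0.802% that rose. At an unadjusted p under 0.05 in limma 8 were lower and none higher. The median difference was -0.10. Tnf, the gene of the prototype inducer of E-selectin, fell by 1.68 (SE 0.14, limma adjusted p = 2.40e-04), and at its other probe set the difference was -1.41. Il1a, which encodes another inducer, fell by 1.27 (SE 0.15), and Il1r1, the signalling receptor for IL-1, by 1.07 (SE 0.13). Tlr2, a receptor for bacterial lipoproteins, fell by 0.74 (SE 0.08). The adaptor gene Myd88 (-0.47, SE 0.09) and the TNF receptor gene Tnfrsf1a (-0.32, SE 0.07) also fell, but Myd88 lost its call without any one heart other than doxorubicin 4, and Tnfrsf1a without any one other than control 2 (limma adjusted p up to 0.103 and 0.120). With the hybridization controls in the fit 1 of the 20 was called, Tnf. Il1b stood at -0.33 (SE 0.18) and Tnfrsf1b at -0.06 (SE 0.08).

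Regulators of transcription of the members, a list of transcription factors, NF-kB inhibitors and coactivators, had negative differences for 23 of 24 measured genes, with a median of -0.35. Of these 8 fell and none rose, against 2.17% of all genes that fell and 0.802% that rose. At an unadjusted p under 0.05 in limma 15 were lower and none higher. Atf3, a stress-induced CREB-family factor, fell by 1.94 (SE 0.13) and Jun, an AP-1 subunit, by 1.67 (SE 0.12), with differences of -1.58 and -2.38 at its other probe sets. The NF-kB inhibitor gene Nfkbia, itself an NF-kB target, fell by 0.82 (SE 0.09) and Klf6 by 0.73 (SE 0.10). The NF-kB subunit genes Nfkb1 (-0.35, SE 0.08) and Rela (-0.35, SE 0.07), Hmga1, which helps assemble factors on promoters (-0.36, SE 0.06), and Erg passed by less. Rela lost the call without any one heart other than controls 1 and 2, Erg without any other than control 1 and doxorubicin 2, Nfkb1 without any other than control 2, and Hmga1 without control 4, doxorubicin 2 or doxorubicin 4 (limma adjusted p up to 0.0985, 0.0965, 0.150 and 0.0565). The count ranged from 4 to 10 without 1 heart, and was 4 without control 4 and 5 without control 3 or without any one doxorubicin heart. With the hybridization controls in the fit it was 2, Atf3 and Jun. Irf1, an interferon regulatory factor gene, stood at -0.45 (SE 0.10, limma adjusted p = 0.0624) and Klf2, a factor that holds endothelium quiescent, at -0.45 (SE 0.18), neither past the test.

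Chemokines and growth factors that endothelium shows to arriving leukocytes had negative differences for 13 of 15 measured genes, with a median of -0.26. Of these 15 genes 3 fell and 1 rose, against 2.17% of all genes that fell and 0.802% that rose. At an unadjusted p under 0.05 in limma 6 were lower and 2 higher. Ccl7, a monocyte chemokine gene, fell by 1.23 (SE 0.16), Cx3cl1, the gene of the membrane-bound chemokine fractalkine, by 0.82 (SE 0.13), and the macrophage growth factor gene Csf1 by 0.66 (SE 0.14). Cxcl12, a chemokine gene active in resting tissue, rose by 0.71 (SE 0.14), while its other probe sets, at 0.37 and 0.36, did not pass. Csf1 lost its call without any one heart other than control 2, and Cxcl12 without control 2, control 3, doxorubicin 1, doxorubicin 2 or doxorubicin 3 (limma adjusted p at most 0.128 and 0.111). The other Csf1 probe sets stood at -1.04 and -0.80, both called (limma adjusted p = 0.00383 and 0.00213), and at -0.10, not called. The count of lower genes was 5 without the dim probe sets, and none of the 15 was called in limma with the hybridization controls in the fit.

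**Figure D4:**
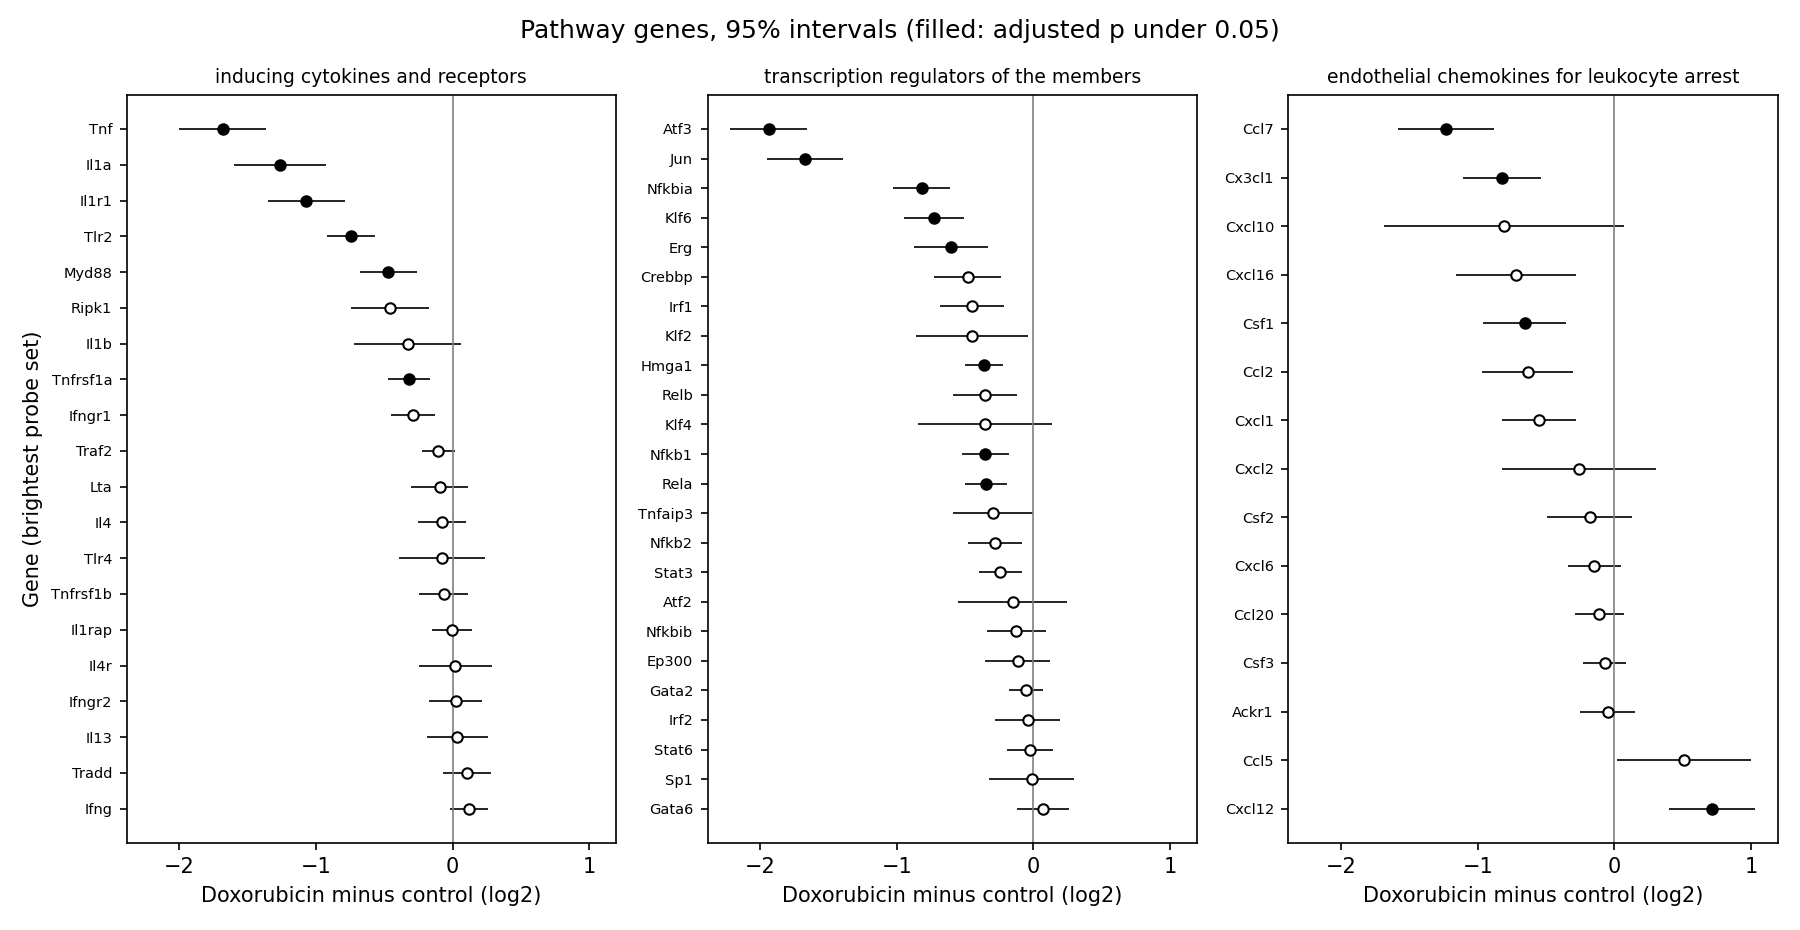
Difference of doxorubicin minus control (log2, horizontal axis) with 95% intervals for every measured gene of 3 lists, by the brightest probe set of each gene; filled points passed at a limma adjusted p under 0.05. Tnf, Atf3 and Ccl7 have the lowest values of their lists, at -1.68, -1.94 and -1.23, and Cxcl12 is the 1 filled point above 0.

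Other molecules of leukocyte passage were read by further lists. Of 20 further adhesion genes of the transmigration route none passed in limma (1 lower and 3 higher at an unadjusted p under 0.05), with differences from -0.30 to 0.37. The intervals of Aoc3, an adhesion amine oxidase gene (0.37, 95% interval -0.08 to 0.82), and Alcam (-0.21, -0.59 to 0.17) were wide. Jam2, a junctional adhesion molecule gene, stood at 0.16 (SE 0.06), Podxl, the gene of the sialomucin podocalyxin, at 0.24 (SE 0.08) and Mcam at -0.30 (SE 0.11). Of 13 Weibel-Palade body genes none passed (1 lower and 1 higher unadjusted), with Edn1, the endothelin-1 gene, at -0.25 (SE 0.09) and Rab3d at 0.33 (SE 0.10). On the leukocyte side, 1 of 9 measured counter-receptor genes fell, Cd44, whose product can bind E-selectin but is made by many cell types (-0.42, SE 0.08). It lost the call without any one heart other than control 2 and doxorubicin 4 (limma adjusted p at most 0.0949) and with the hybridization controls in the fit (-0.46, 0.502). At its other probe set the difference was -0.51 (SE 0.13), not called. Itgb2, the shared chain of LFA-1 and Mac-1, stood at 0.15 (SE 0.10).

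None of 11 genes that build the glycans read by selectins passed (1 lower and 1 higher at an unadjusted p under 0.05 in limma), with C1galt1, which makes core O-glycans, at 0.28 (SE 0.09). Of 7 genes that govern shedding of membrane proteins 1 fell, Rhbdf1, which encodes the iRhom1 protein that supports the sheddase ADAM17 (-0.53, SE 0.10). That call was lost without any one heart other than control 2 and doxorubicin 3 (limma adjusted p up to 0.100) and with the hybridization controls in the fit (-0.69, 0.288), and Adam17 itself stood at -0.0016 (SE 0.14).

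The genes most like each member were ranked by Pearson correlation over the 8 hearts among 12057 brighter genes. Sele was most like Rnd1 (r = 0.99), the chemokine gene Ccl3 (0.99) and the nuclear receptor gene Nr4a3 (0.99). The differences of Rnd1, Ccl3 and Nr4a3 were -1.43 (SE 0.10), -1.79 (SE 0.13) and -2.78 (SE 0.25), all called. Of the 3 Nr4a3 probe sets another was called at -2.62 (limma adjusted p = 6.64e-04). The last stood at 0.31, with low means of 4.56 log2 in control and 4.87 log2 in doxorubicin hearts. After subtracting group means, the correlations of Rnd1, Ccl3 and Nr4a3 with Sele were 0.93, 0.90 and 0.86. Selp was most like Ino80 (0.99), Vps37c (0.98) and Tal1 (0.97), and Vcam1 most like Tal1 (0.98), Vps37c (0.97) and Lrch3 (0.96), so that 2 of 3 genes were shared by these members. Ino80, Vps37c and Tal1 differed by -0.39 (SE 0.08), -0.31 (SE 0.06) and -0.22 (SE 0.06), the last not called, and the calls of Ino80 and Vps37c were lost without any one heart other than control 1 and doxorubicin 4 (limma adjusted p up to 0.140 and 0.124) and with the hybridization controls in the fit (0.697 and 0.719). The other probe sets of Vps37c and Tal1 stood at 0.02 and 0.11, with control means of 4.23 and 4.32 log2 against 7.45 and 5.94 at the brightest ones. Icam1 was most like Hoxa7 (0.95), Abhd5 (0.94) and Irf1 (0.94), none of them called, and Icam2 most like Yme1l1 (0.96), Lig4 (0.96) and Golga4 (0.94), also uncalled. Such high correlations over 8 points among many genes are a ranking and carry no test.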

How the data were processed

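The deposited table holds intensity values of 31099 probe sets on 8 arrays, made by the authors with RMA per the submitters' processing notes. The values run from 8.85 to 23267, so they were read as linear and log2 was taken. RMA aligns the arrays' distributions, which hides a shift common to most transcripts. Its version is not given in the sources used here. After removal of 57 AFFX controls, 31042 probe sets were fitted with limma 3.58.1 in R 4.3.3 (lmFit, eBayes, no covariate). Symbols came from the platform annotation, and 20758 of 20826 single-symbol probe sets matched RefSeq GRCr8 by gene ID. The brightest probe set stood for a gene.

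The members, 19 gene lists, tests and alternatives were chosen with earlier results of these data known. Named were all members, up to 4 genes of a list (called genes with the smallest p first) and the 3 genes most like each member. Tnfrsf1a, Myd88, Nfkb1, Rela, Erg, Hmga1, Il1b, Tnfrsf1b, Klf2, Pecam1, Vwf, Aoc3, Alcam and Adam17 were chosen after their values were seen. Replicate numbers did not pair the hearts (correlations of deviations -0.18 to 0.06). Alternatives changed the scaling, filter, offset, variance model, covariate, probe set rule or hearts used. With 4 arrays a group, their number limits the precision, and the p-values cover the spread between these hearts. Figures were drawn with matplotlib 3.10.9 in Python 3.11.15.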

Additional observations from a re-analysis of the deposited data

Results flagged for a closer look

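A level was picked out where 1 of 4 hearts of a group stood far from the other 3 relative to the group's range (Dixon's ratio above its 95% critical value). Chance picks out about 1 in 20 groups, and 15 of 206 groups tested were picked out. Among the members this held for the dimmer Icam2 probe set, at 4.77 log2 in doxorubicin 2 against 4.92 to 4.93 in the other doxorubicin hearts. The hybridization control mean was 10.1 log2 in doxorubicin 1, against 9.97 to 9.99 in the other doxorubicin hearts.

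Doxorubicin 4, the heart with the highest Sele, Selp, Icam1 and Vcam1 of its group, was picked out for the macrophage marker Csf1r (7.42 log2), the collagen gene Col3a1 (12.3), the fat droplet gene Plin1 (5.83 against 3.60 to 3.88), and for Ino80 (5.93) and Tal1 (5.83), each above the other doxorubicin hearts. Control 2 was low for C1galt1 (6.34) and high for C1galt1c1 (8.25) and for the brown fat gene Ucp1 (6.62 against 4.32 to 4.50). Control 1 was high for Rela (7.97 against 7.76 to 7.77) and low for Ttn (11.5 against 11.8). Control 4 was low for Wt1 (5.36). Doxorubicin 1 was high for Ramp2 (8.71) and doxorubicin 3 low for Tnfrsf1a (7.93).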

How the results depend on the processing

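Sele, Selp (brighter) and Vcam1 kept their direction and call with array weights, robust variances, a variance trend over intensity, dim probe sets left out, arrays centred on their medians and a new quantile normalization. They also did with the atrial covariate added after seeing the data, which is no independent check. With log2(value + 16), Selp was -0.65 and Vcam1 -0.74, no longer called, which left 1 probe set and 1 gene called. With the hybridization controls as a covariate, Sele was -2.02, Selp -0.65 and Vcam1 -0.63, so 0 probe sets and 0 genes were called in limma (3 lower at an unadjusted p under 0.05), and the dimmer Selp and Icam2 probe sets reversed to 0.062 and 0.20. Over all probe sets 92 were then called in place of 687, and of the named genes that are no members Tnf, Atf3, Jun, Rnd1, Ccl3 and Nr4a3 kept their call. The replicate block, though the numbers do not pair the hearts, gave -0.79 for Selp (limma adjusted p = 0.0799) and kept Sele and Vcam1. The mean of its probe sets gave -0.43 for the Selp gene, and the probe set of largest variance reversed Icam2 to -0.077. Relative to the endothelial mean, Selp was -0.70 and Vcam1 -0.67 (no longer past the exact test), Icam2 0.18 (now past it), and the dimmer Selp and Icam2 probe sets reversed to 0.0032 and 0.0079. With Sox18 left out of that mean, Selp and Vcam1 passed the exact test and Icam2 was 0.092 (past it). Leaving out 1 heart gave -0.92 to -0.71 for Selp, -0.91 to -0.66 for Vcam1, -0.20 to 0.0066 for the dimmer Icam2 probe set, and 1 to 3 called probe sets and 1 to 3 called genes. Of other named genes, Mmp9 (0.0048), Treml1 (-0.043) and Wt1 (0.11) reversed with the hybridization covariate, Myl7 (-0.076) and Nppa (-0.13) with the atrial one, and Abhd5 with the mean (0.012) or the largest variance (0.15) of its probe sets. Without 1 heart Ucp1 ranged from -0.12 to 1.63 and Plin1 from -0.16 to 0.58, both reversed without doxorubicin 4. The causes were not tested. Levels near the dimmest 25% of probe sets, such as the dimmer Selp probe set, limit what a small difference shows.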
